A study of Mus musculus with 9 samples.

Results

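Kidney transcripts of the insulin and insulin-like growth factor (IGF) signalling route were examined in wild-type mice of 3 months (young, n = 4 libraries) and 16 months (old, n = 5 libraries). The set held 10 genes chosen by name: the ligand gene Igf1, the receptor genes Igf1r and Insr, the adaptor genes Irs1 and Irs2, the binding protein genes Igfbp3, Igfbp4, Igfbp5 and Igfbp7, and the transcription factor gene Foxo3. All 10 were among the 13081 genes of the table and all 10 passed the filter on low counts. The groups carried no mutation and no drug treatment, and the labels give neither strain nor sex nor whether each library came from a separate animal, so p-values measure the spread between these libraries.

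RNA was primed from the poly(A) tail and reads were counted near transcript ends on the gene's strand. Values are normalised counts, in which the reads of a gene are divided by the size factor of its library. The libraries held 4486406 to 6355095 reads over the listed genes, and a floor of 3 reads was 4.72e-05% to 6.69e-05% of a library, which covers counting error only. The young and the old libraries carry different title prefixes, so age and any handling tied to a prefix cannot be told apart here. Over all 13081 genes old replicate 2 stood nearer to the young libraries (Pearson r of log2 values 0.885 to 0.895) than the other old libraries did (0.845 to 0.864). Without it the same numbers of the 10 genes were called higher and lower. All 8 proximal tubule markers and all 5 thick ascending limb markers were above 0 in every library, and 0 of 5 adrenal cortex markers were in the list. Whole-kidney RNA cannot tell fewer cells of a type from less RNA per cell.

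Insulin and IGF1 bind related receptor tyrosine kinases, which phosphorylate the insulin receptor substrate (IRS) adaptors. These recruit phosphoinositide 3-kinase (PI3K), which activates the kinase Akt, and Akt keeps the FoxO transcription factors out of the nucleus. IGF-binding proteins hold IGF1 outside the cell, prolonging its life in the circulation or limiting its access to the receptor. In the kidney the route takes part in tubular growth, sodium handling and filtration, and reduced insulin and IGF signalling is a classical route to longer life in animal models.

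With age the counts of 2 binding protein genes fell several-fold, and the other 8 genes differed by less. Igfbp7 was 5.47-fold lower and Igfbp3 3.66-fold lower in old than in young kidneys, and Igfbp4 was 1.53-fold higher. In the values as deposited, Insr was higher and Irs1 lower by smaller amounts. On the log2 scale Irs1 (-0.61) moved more than Igfbp4 (0.56) with counts scaled to the total of each library. The same held when a trend with transcript length was removed (-1.04 and 0.61). Igf1, Igf1r, Irs2, Igfbp5 and Foxo3 did not pass the test. In all, 5 of 10 genes were called at an adjusted p-value under 0.05 (limma on log2 values, Benjamini-Hochberg adjusted over all 12667 genes tested), 2 higher and 3 lower. This share lies near the background, since 59.7% of all genes tested were called, 29.2% higher and 30.5% lower. The groups did not overlap in 4 of the 10 genes, against 49% of all genes. Old lay above young in 1 (23.3% of all genes) and below in 3 (25.7%). A called fall of at least 1 on the log2 scale was seen in 2 of the 10, Igfbp7 and Igfbp3 (13.9% of all genes). The median log2 fold change of the 10 genes was -0.05, beside 0.00 over all genes tested.

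**Figure D1:**
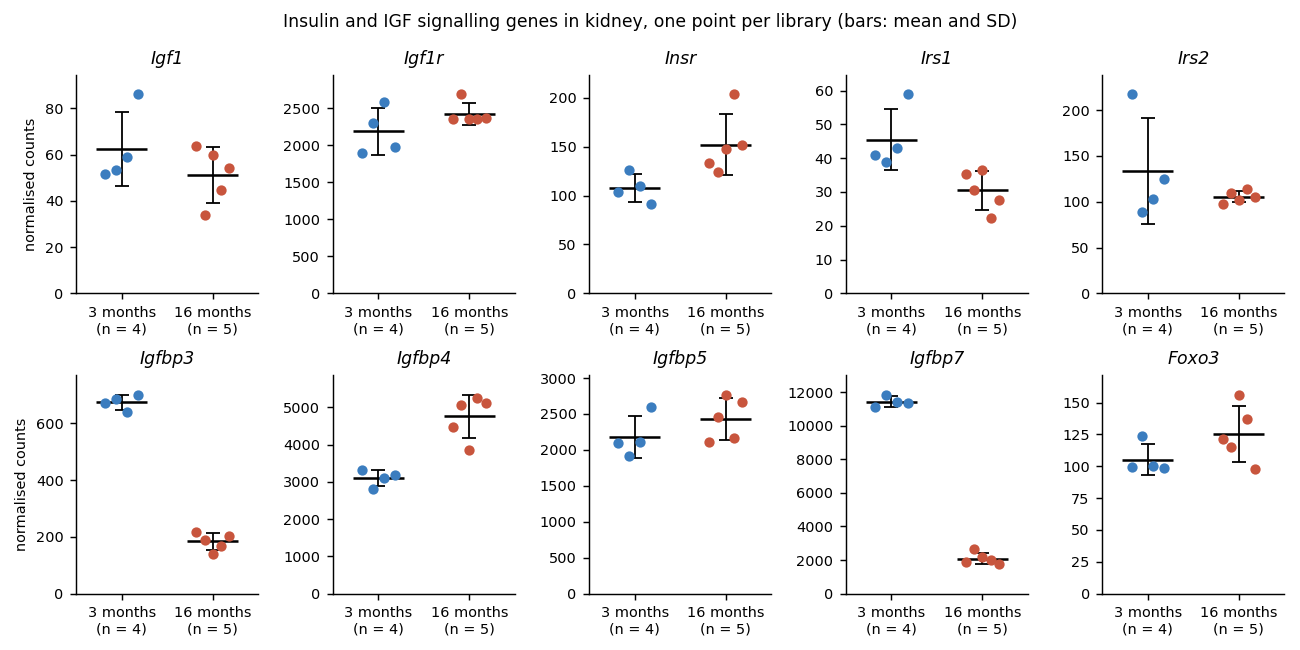
Normalised counts of each of the 10 genes in the 4 young (3 months) and 5 old (16 months) libraries, 1 point per library, with the mean as a line and the SD as a bar. All axes start at 0. Igfbp7 and Igfbp3 lie lower in every old library than in any young library, and Igfbp4 lies higher.

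The sequences just upstream of the 3 genes that moved most in the values as deposited are shown because they have none of the 6 motifs searched in common. Promoter windows of 300 bases (250 before to 50 after the RefSeq transcript start, build GRCm38.p6) were matched by symbol for 9 of the 10 genes, all but Insr. The counts did not measure promoter activity. Capitals mark GGGCGG (the GC box, read on both strands) in Igfbp7, TATATA in Igfbp3 and TATAAA (the TATA box) in Igfbp4, each written 5′ to 3′ on the gene's strand.
Igfbp7: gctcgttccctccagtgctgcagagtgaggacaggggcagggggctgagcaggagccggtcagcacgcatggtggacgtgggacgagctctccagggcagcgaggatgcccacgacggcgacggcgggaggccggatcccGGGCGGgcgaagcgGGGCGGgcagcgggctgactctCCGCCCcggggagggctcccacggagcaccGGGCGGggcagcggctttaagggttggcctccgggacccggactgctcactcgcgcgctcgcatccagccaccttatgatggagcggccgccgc
Igfbp3: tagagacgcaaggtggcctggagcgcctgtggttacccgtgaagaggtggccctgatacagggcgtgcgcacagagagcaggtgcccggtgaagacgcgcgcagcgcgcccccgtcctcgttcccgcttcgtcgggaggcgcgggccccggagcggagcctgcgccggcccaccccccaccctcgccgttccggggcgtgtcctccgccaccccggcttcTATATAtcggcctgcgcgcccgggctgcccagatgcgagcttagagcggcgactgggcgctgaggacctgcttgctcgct
Igfbp4: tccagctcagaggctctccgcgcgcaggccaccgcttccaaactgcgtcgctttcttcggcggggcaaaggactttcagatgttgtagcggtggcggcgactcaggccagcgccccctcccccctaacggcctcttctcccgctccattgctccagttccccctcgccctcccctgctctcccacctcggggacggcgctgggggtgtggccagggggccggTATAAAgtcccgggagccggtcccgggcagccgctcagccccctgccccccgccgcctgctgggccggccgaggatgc
The windows are chr5:77407996-77408295 on the minus strand for Igfbp7, chr11:7213874-7214173 on the minus strand for Igfbp3 and chr11:99040994-99041293 on the plus strand for Igfbp4. The Igfbp7 window held 4 GC boxes, an element found in 35.7% of all 32851 promoter windows and in 61.8% of the 12353 windows of tested genes, and neither TA-rich element. TATATA stood 30 bases before the Igfbp3 start and TATAAA 28 bases before the Igfbp4 start, and they occurred in 5.67% and 13.6% of all windows and in 2.33% and 7.33% of those of tested genes. These are matches of letters and not sites of binding. The FoxO motif TGTTTAC had 0 matches on either strand in the 9 windows and was present in 3.65% of all windows and 2.73% of those of tested genes.

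Igfbp7, a secreted binding protein of low affinity for IGF1 that vessel walls make, had the largest change of the 10 genes. It read 11087, 11839, 11429 and 11349 normalised counts in the young libraries and 1894, 2637, 2153, 2019 and 1737 in the old libraries. The highest old library was far below the lowest young library. The mean fell from 11426 ± 312 (SD, n = 4) to 2088 ± 343 (SD, n = 5), a log2 fold change of -2.47 ± 0.11 (SE, limma, adjusted p = 2.56e-12). Only 1.71% of all genes tested had a lower log2 fold change. Over 20 alternatives of processing, each of which called it lower, the log2 fold change ran from -2.55 to -2.10. Igfbp7 lies on chromosome 5 (77349240 to 77408041, minus strand, GRCm38, GENCODE vM21) with 6 exons in its longest transcript of 1200 bases. It overlaps Polr2b, on the opposite strand, within 500 bases of its 3′ end, and the authors counted by strand.

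Igfbp3, the main carrier of IGF1 in the circulation, read 673, 686, 639 and 701 normalised counts in young kidneys. The old libraries read 218, 190.3, 141, 169 and 204. The groups again lay apart, and the spread between libraries was small beside the gap. The mean fell from 675 ± 26.2 (SD, n = 4) to 184 ± 30.3 (SD, n = 5), a log2 fold change of -1.88 ± 0.12 (SE, limma, adjusted p = 3.03e-10). The change kept its call under each of 20 alternatives, with log2 fold changes from -1.95 to -1.68. The gene lies on chromosome 11 (7206086 to 7213923, minus strand).

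Igfbp1, a binding protein gene induced by fasting and repressed by insulin, lies 3539 bases from Igfbp3 on the same chromosome. It averaged 80.3 ± 21.7 (SD, n = 4) in young and 50.6 ± 23.0 (SD, n = 5) in old kidneys, with overlapping groups and a log2 fold change of -0.78 (adjusted p 0.0425 by limma). This call was weak, since it was lost in 8 of 19 alternatives, among them 6 that each left out 1 library (young replicates 1, 3 and 4, old replicates 1, 2 and 5), with log2 fold changes of -0.83 to -0.42 without them. Its adjusted p-value ranged from 0.011 to 0.212.

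Igfbp4, which restrains IGF1 until proteases cleave it, moved the other way. It read 3308, 2819.7, 3094 and 3191 normalised counts in young libraries and 4477, 5056, 3856, 5258 and 5119.6 in old ones. The lowest old library (replicate 3) still exceeded the highest young library. The mean rose from 3103 ± 208 (SD, n = 4) to 4753 ± 584 (SD, n = 5), a log2 fold change of 0.61 ± 0.10 (SE, limma, adjusted p = 5.68e-05). It was called higher in each of 20 alternatives, at 0.56 to 0.75. The gene lies on chromosome 11 (99041244 to 99054392, plus strand).

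Igfbp5, the most conserved of the binding proteins and one that adheres to matrix, read 2091, 1912, 2113 and 2595 in young and 2104, 2454, 2768, 2169.7 and 2673 in old libraries. The groups overlapped over most of their range. The log2 fold change was 0.16 ± 0.11 (SE, limma, adjusted p = 0.212). It was called higher (0.30, adjusted p 0.0294) when libraries were rescaled after removal of mitochondrial genes, a scaling that shifted the median of all genes by 0.14, and it changed direction (-0.10) when a trend with transcript length was removed.

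**Figure D2:**
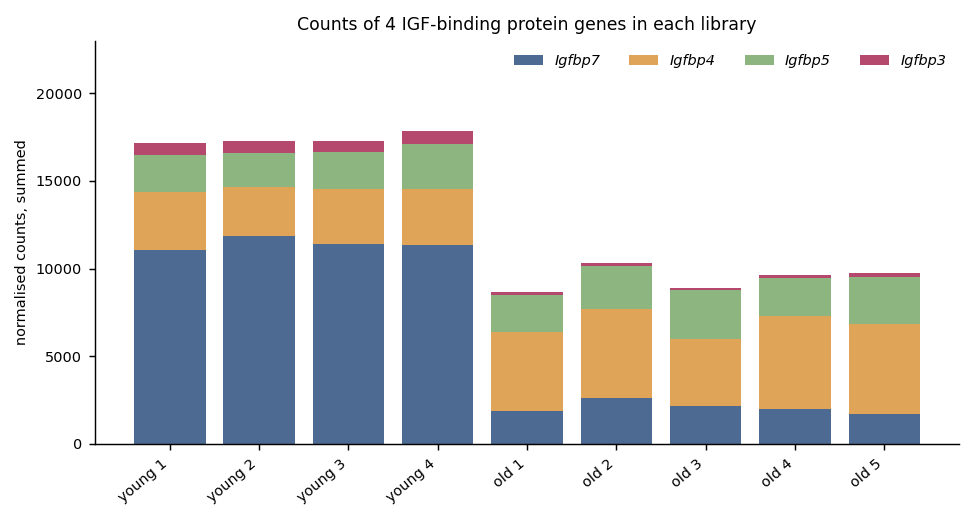
Summed normalised counts of Igfbp7, Igfbp4, Igfbp5 and Igfbp3 in each library, stacked by gene. The sum was 17159 to 17835 in the 4 young libraries and 8693 to 10337 in the 5 old libraries, with a smaller Igfbp7 block and a larger Igfbp4 block in every old library.

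The pool of binding protein reads differed in make-up between the ages. Summed over these 4 genes, young libraries held 17159 to 17835 normalised counts and old libraries 8693 to 10337. Igfbp7 made up 63.6% to 68.6% of the sum in young kidneys and 17.8% to 25.5% in old kidneys. Igfbp4 made up 16.3% to 19.3% in young and 43.2% to 54.7% in old kidneys, and Igfbp5 11.1% to 14.5% and 22.6% to 31.0%. The shares of Igfbp4 and Igfbp5 rose as the Igfbp7 part of the sum shrank, and the level of Igfbp5 itself did not pass the test. These are shares of reads and not of protein.

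Whether related genes changed by different amounts was tested on the log2 ratio of both genes within a library, which hardly depends on how libraries are scaled. Exact two-sided permutation tests over all 126 assignments of the ages to the libraries were run for 5 pairs, with a smallest possible p-value of 0.0159. The log2 ratio of Igfbp3 to Igfbp5 fell from -1.68 ± 0.17 (SD, n = 4) to -3.72 ± 0.36 (SD, n = 5), a difference of -2.04 (exact permutation p = 0.0159, adjusted 0.0397), and was lower in 5 of 5 old libraries. Igfbp3 to Igfbp4 fell by 2.49 on the same scale (exact permutation p = 0.0159, adjusted 0.0397). Both ratios contain Igfbp3, whose groups already lay apart, so they are not independent results. The ratio of Igfbp4 to Igfbp5 differed by 0.45, which did not pass the test (exact permutation p = 0.0635, adjusted 0.106), except without old replicate 3 (0.57, adjusted p 0.0476 by exact permutation) or with the length trend removed (0.72, adjusted p 0.0265). With any library but old replicate 2 or 3 left out, both Igfbp3 ratios kept differences of -2.57 to -1.98. Their exact permutation adjusted p-values were 0.0595 to 0.0893, where the smallest unadjusted p-value was 0.0357 or 0.0286. With the length trend removed the differences were -1.58 for Igfbp3 to Igfbp5 and -2.30 for Igfbp3 to Igfbp4 (exact permutation, adjusted p 0.0265 for each).

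Endothelial and stromal cells are among the sources of Igfbp3, Igfbp5 and Igfbp7 in kidney, and their markers were read beside these genes. Shares of all genes called were 29.2% higher and 30.5% lower. Of 10 endothelial markers, 6 were called higher and 0 lower, and their summed level was 1962 to 2072 normalised counts in young and 2457 to 2804 in old libraries. Per count of these markers, Igfbp7 stood at 5.41 to 6.04 in young and 0.629 to 1.07 in old libraries. Igfbp3 stood at 0.323 to 0.350 and 0.0503 to 0.0838. Of 10 stromal and mural markers, 3 were called higher and 5 lower, with sums of 2223 to 2661 in young and 1886 to 2464 in old libraries. Of 9 macrophage markers, 4 were called higher and 1 lower, with sums of 1184 to 1370.1 in young and 1390.3 to 1970.0 in old libraries. No marker of these 3 lists was at 0 in any library. Among lists of other cells, 2 of 6 lymphocyte and plasma cell markers were tested, Jchain and Igkc, and both were called higher. The markers Cd3d, Cd79a and Ms4a1 had no values and Cd3e was too low to test. Sums over the 3 with values were 227 to 673 in young and 792 to 2426 in old libraries, where Igkc alone averaged 322 and 1437. Of 8 collecting duct markers 5 were called lower and 1 higher (median log2 fold change -0.57), of 6 podocyte markers 4 higher and 1 lower, of 8 proximal tubule markers 3 higher and 3 lower, of 4 distal convoluted tubule markers 2 higher and 2 lower, and of 5 thick ascending limb markers 2 higher. Of 3 tested adipocyte markers 1 was called lower. The ratios to endothelial markers are descriptive, and none was taken to the stromal markers. The endothelial markers had a median length of 3827 bases, against 1200 for Igfbp7, and the ratios were not corrected for length. The part of cell make-up in the binding protein values was not tested.

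Igf1 encodes the growth factor itself. It was 51.6, 53.4, 58.8 and 86.0 normalised counts in young and 63.6, 33.9, 59.8, 44.8 and 54.1 in old libraries. The groups overlapped, with a log2 fold change of -0.28 ± 0.21 (SE, limma, adjusted p = 0.257). It was called lower (-0.63, adjusted p 0.0142) with the length trend removed, and its range over 19 alternatives was -0.63 to -0.12.

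Igf1r encodes the receptor for IGF1. It read 1898, 2307, 2590.4 and 1975 in young and 2361, 2689, 2354, 2354 and 2372 in old libraries. The old values, apart from replicate 2, lay close together and inside the young range. The log2 fold change was 0.16 ± 0.10 (SE, limma, adjusted p = 0.193). It was called higher after rescaling without mitochondrial genes (0.30, adjusted p 0.0165) and lower with the length trend removed (-0.42, adjusted p 0.0025), so its direction depends on these treatments.

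Insr encodes the insulin receptor, on chromosome 8 (3122061 to 3279617, minus strand). It read 104, 126, 109.8 and 91.4 normalised counts in young and 133, 124, 148, 203 and 152 in old libraries. Old replicate 2 lay below the highest young library, so the groups overlapped. The mean rose from 108 ± 14.5 (SD, n = 4) to 152 ± 30.9 (SD, n = 5), a log2 fold change of 0.48 ± 0.15 (SE, limma, adjusted p = 0.0108). It kept its call without any single library, with adjusted p-values up to 0.0451. With the length trend removed the difference was gone (-0.01, adjusted p 0.960).

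The 2 receptor genes were not shown to change by different amounts. The log2 ratio of Igf1r to Insr was 4.33 ± 0.18 (SD, n = 4) in young and 4.01 ± 0.33 (SD, n = 5) in old libraries, a difference of -0.32 (exact permutation p = 0.111, adjusted 0.139). Without old replicate 2 it was -0.43 and passed the test (exact permutation, adjusted p 0.0476).

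Irs1 and Irs2 encode the adaptors that couple both receptors to PI3K, and Irs2 is a known FoxO target in liver. Their promoters are shown because they share a stretch of letters. An E-box (CACGTG) runs into or stands next to TGTTTTG, a form of the insulin response element, and the motif was searched after these windows had been read. Capitals mark these motifs, which overlap by 2 bases in Irs1.
Irs1: ctccgtCACGTGTTTTGctcctctggagtg
Irs2: cagagtCACGTGtTGTTTTGctcttagttc
The stretches are chr1:82291531-82291560 for Irs1 and chr8:11008950-11008979 for Irs2, both on the minus strand (GRCm38.p6, RefSeq). TGTTTTG was present in 6.28% and the E-box in 7.15% of all 32851 windows (4.52% and 10% of those of tested genes), and both together, at any distance, in 134 of them. Irs1 held a further TGTTTTG, 32 bases before its start.

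Irs1 read 40.9, 38.9, 43.1 and 58.8 normalised counts in young and 35.4, 30.6, 36.5, 22.4 and 27.6 in old libraries. All old libraries lay below all young ones, by a margin of few counts. The mean fell from 45.4 ± 9.10 (SD, n = 4) to 30.5 ± 5.79 (SD, n = 5), a log2 fold change of -0.56 ± 0.21 (SE, limma, adjusted p = 0.0305). The call was lost without young replicate 3 (adjusted p 0.0543), young replicate 4 (0.128) or old replicate 4 (0.0729), and after rescaling without mitochondrial genes (-0.42, adjusted p 0.107). With the length trend removed it was -1.04. Over 19 alternatives the adjusted p-value by limma, edgeR or DESeq2 ranged from 0.000479 to 0.128. Irs1 lies on chromosome 1 (82233101 to 82291416, minus strand), and overlaps Gm9747, on the other strand, within 500 bases of its 3′ end.

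Irs2 read 217, 88.4, 103 and 125 in young and 97.8, 109, 101, 114 and 105 in old libraries. Young replicate 1 stood far above all others, and the remaining young libraries spanned the old ones. The log2 fold change was -0.25 ± 0.19 (SE, limma, adjusted p = 0.280), and without young replicate 1 it was 0.01 (adjusted p 0.951). With the length trend removed it was called lower (-0.54, adjusted p 0.0242). The log2 ratio of Irs1 to Irs2 differed by -0.31 between the ages (exact permutation p = 0.349, adjusted 0.349) and did not pass the test. Without young replicate 1 it was -0.62 (adjusted p 0.0595 by exact permutation), and over the libraries left out in turn it ran from -0.62 to -0.18.

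Foxo3, which encodes a FoxO factor linked to long life in several species, read 99.1, 123, 100.01 and 98.7 in young and 121, 115, 156, 137 and 97.6 in old libraries. The groups overlapped, and old replicate 5 was the lowest of all. The log2 fold change was 0.24 ± 0.15 (SE, limma, adjusted p = 0.176). It was called higher after rescaling without mitochondrial genes (0.38, adjusted p 0.0418), and it was -0.09 with the length trend removed (adjusted p 0.606).

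**Figure D3:**
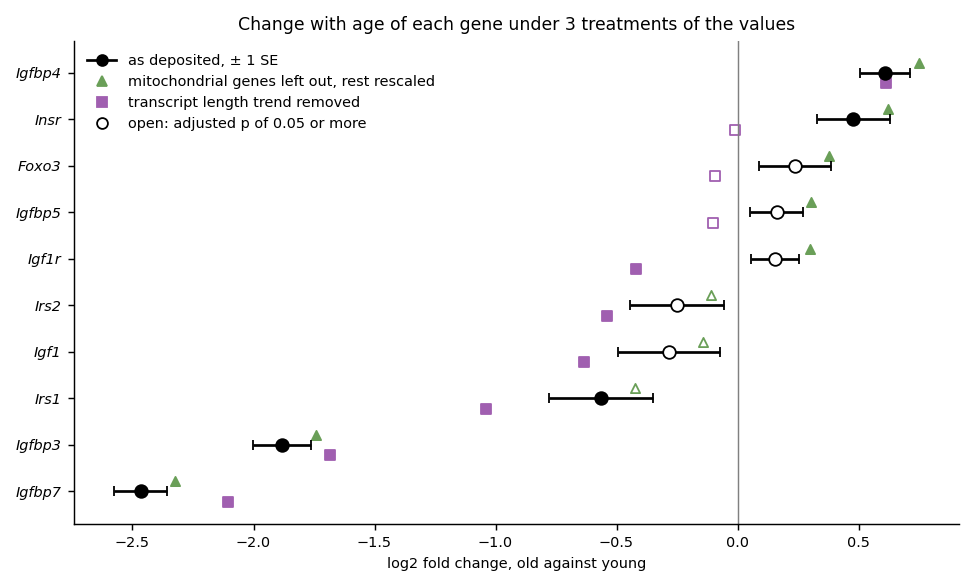
Log2 fold change of each gene, old against young, as deposited (circles, bar 1 standard error), after rescaling without mitochondrial genes (triangles) and with the transcript length trend removed (squares). Filled symbols had an adjusted p-value under 0.05. Igfbp7 and Igfbp3 stay at or below -1.68 and Igfbp4 at or above 0.56 in all 3, while the symbols of Igf1r, Igfbp5, Insr and Foxo3 fall on both sides of 0.

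Transcript length moved with age across the table, and most of these genes are long. Genes with a longest annotated transcript of 1000 to 2000 bases had a median log2 fold change of -0.30 (2054 genes), those of 6000 to 8000 bases 0.35 (1079 genes) and those over 8000 bases 0.56 (716 genes). Igf1r (11409 bases), Insr (9355) and Irs1 (9144) belong to the longest class. Their log2 fold changes of 0.16, 0.48 and -0.56 were all below its median. Igf1 (7052), Foxo3 (6848) and Irs2 (6323) lay below the median of their class too. Igfbp7 (1200 bases) and Igfbp3 (2421) lay far below theirs, and Igfbp4 (3831) above its class median of -0.10. With the trend removed 1 gene was called higher (Igfbp4) and 6 lower (Igfbp7, Igfbp3, Irs1, Igf1, Irs2 and Igf1r), where 28.8% of all genes were called higher and 28.7% lower.

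**Figure D4:**
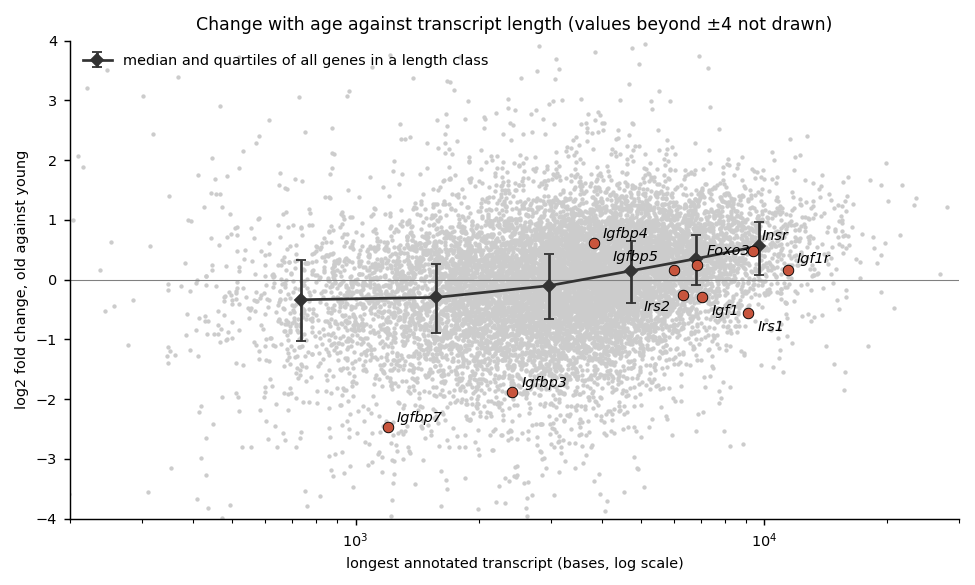
Log2 fold change of every gene tested (grey points) against the length of its longest annotated transcript in bases (log axis), with the median and quartiles of each length class (diamonds) and the 10 genes named in red. The medians climb from -0.34 under 1000 bases to 0.56 over 8000 bases, and Igfbp7 and Igfbp3 lie far below the medians around them.

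The scaling of libraries mattered for the small differences. Mitochondrial genes took 27.0% to 29.7% of reads in young and 35.8% to 38.1% in old libraries. After rescaling without them, 5 of the 10 genes were called higher, Igf1r, Igfbp5 and Foxo3 joining Igfbp4 and Insr, and 2 lower, Igfbp7 and Igfbp3. The same scaling moved the median of all genes up by 0.14 on the log2 scale and called 35.4% of all genes higher and 25.1% lower, so these added calls went with a shift of the whole table.

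Other genes of the route were read from 4 lists drawn up by function. Of 76 genes, 66 were tested and 38 called, 21 higher and 17 lower, which is 57.6% beside 59.7% of all genes. Igf2, Igfbp2 and Igfbp6 were not among the 13081 genes with values and could not be tested.

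Among ligands, other binding proteins and their proteases, 6 of 10 tested genes were called, 4 higher and 2 lower, with a median log2 fold change of 0.18, near the 59.7% of all genes called (29.2% higher and 30.5% lower). Lrp1, an endocytic receptor that binds Igfbp3, rose from 131 ± 11.5 (SD, n = 4) to 233 ± 29.8 (SD, n = 5), a log2 fold change of 0.82, but not with the length trend removed (0.13, adjusted p 0.372 by limma). Ide, the protease that degrades insulin, rose by 0.76 on the log2 scale. Ghr, the growth hormone receptor that drives Igf1 transcription in liver, fell by 0.35 on the log2 scale. It was not called after rescaling without mitochondrial genes (-0.20, adjusted p 0.0664 by limma). Igf2r, which clears Igf2 and sorts lysosomal enzymes, rose by 0.33, and stood at -0.13 with the length trend removed (adjusted p 0.291 by limma).

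Among receptor-proximal adaptors and inhibitors, 12 of 19 tested genes were called, 6 higher and 6 lower, again near the shares of all genes (29.2% higher and 30.5% lower). Gab1, a docking protein for PI3K, read 114 to 115 normalised counts in young and 23.3 to 32.6 in old libraries. Its log2 fold change was -2.10 (limma, adjusted p = 7.83e-09). Grb10, an inhibitor that binds both receptors, fell by 0.83 on the log2 scale. The ubiquitin ligase genes Cbl and Nedd4 rose by 0.90 and 0.76, or by 0.32 and 0.54 with the length trend removed.

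Among PI3K, Akt and downstream kinases, 11 of 21 tested genes were called, 10 higher and 1 lower, with a median log2 fold change of 0.26. Of all genes 29.2% were higher and 30.5% lower. The median length of this list was 6226 bases, and all genes of 6000 to 8000 bases had a higher median of 0.35. Akt1 was the one that fell. It read 381.9 to 458.1 normalised counts in young and 125 to 187 in old libraries, a log2 fold change of -1.54 ± 0.12 (SE, limma, adjusted p = 6.18e-09). Akt2, which is the main Akt gene of insulin-responsive tissues, rose by 0.38 on the log2 scale. Rictor, a subunit of the mTORC2 complex that phosphorylates Akt, rose by 1.22, or by 0.73 with the length trend removed. The regulatory PI3K subunits Pik3r1 (0.94, or 0.58 with the length trend removed) and Pik3r3 (1.24) and the kinase Sgk1 (1.25), an aldosterone-induced relative of Akt, were higher too. The catalytic subunit gene Pik3ca stood at -0.23 (adjusted p 0.106 by limma) and was called lower with the length trend removed (-0.70, adjusted p 3.43e-05).

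Among the other FoxO factors and FoxO target genes, 9 of 16 tested genes were called, 1 higher and 8 lower, with a median log2 fold change of -0.49, where 29.2% of all genes were higher and 30.5% lower. Foxo1 read 279 to 360 normalised counts in young and 195 to 254 in old libraries, a log2 fold change of -0.48 (limma, adjusted p = 0.00153), or -0.93 with the length trend removed. Foxo4 stood at -0.35 and did not pass the test (adjusted p 0.111 by limma), except without old replicate 4 (-0.48, adjusted p 0.0305). Of the targets, Ccng2, an unconventional cyclin, fell from 57.6 ± 12.4 (SD, n = 4) to 5.46 ± 3.99 (SD, n = 5) and was at 0 in 1 old library. Pdk4, a kinase that spares glucose, fell by 2.10 on the log2 scale, Txnip, a glucose-responsive inhibitor of thioredoxin, fell by 2.08, and Sod2, the mitochondrial superoxide dismutase, fell by 1.82.

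**Figure D5:**
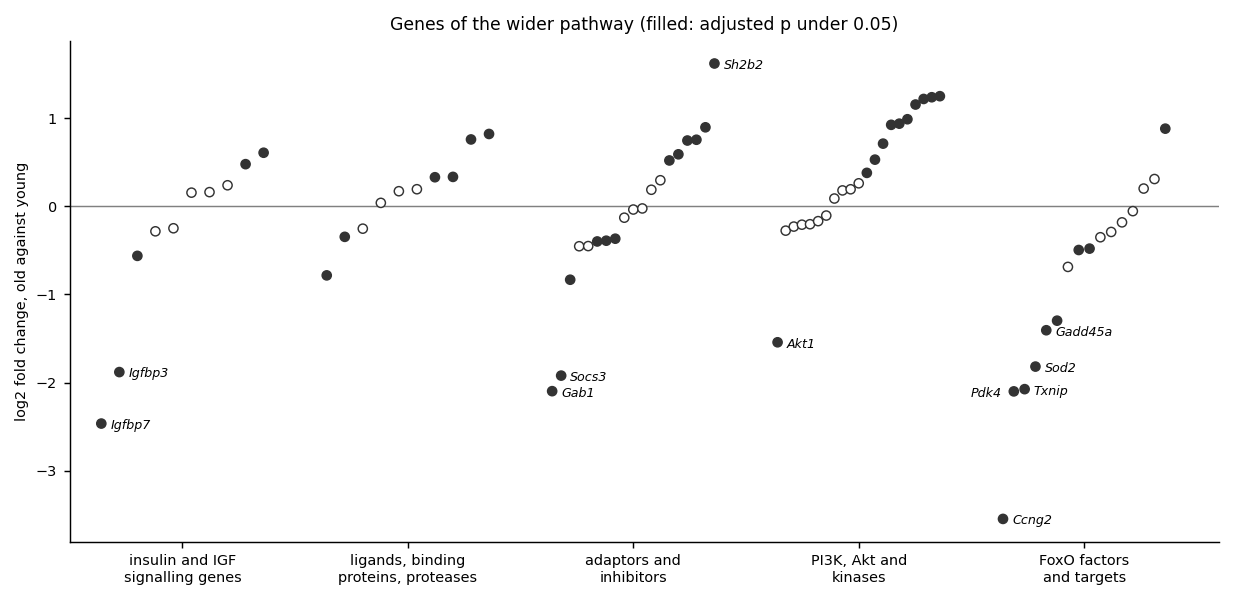
Log2 fold change, old against young, of the 10 genes and of the tested genes in 4 lists of the wider route, ordered within each list (filled, adjusted p under 0.05). In the PI3K and Akt list 10 filled points lie above 0 and Akt1 is the only filled point below it, and in the FoxO list 8 of 9 filled points lie below 0.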

How the data were processed

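RNA from whole kidney of 3-month and 16-month wild-type mice was converted into libraries primed on the poly(A) tail. The authors aligned reads to GRCm39 with TopHat2 2.0.10 (Bowtie 1.0.0, SAMtools 0.1.19), counted them by strand with HTSeq 0.6.1 on GENCODE and normalised with DESeq; versions are from the submitters' processing notes. Deposited values are normalised counts (a signal, with whole reads divided by the library's size factor). With the smallest positive value of a library taken as 1 read, 100% of values were whole to within 0.01. The lowest gene mean was 4.49, so low genes had been removed. Replicate numbers follow the listing order.

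limma 3.58.1 (R 4.3.3, variance trend) was fitted to log2(normalised count + 1) of genes that reached 10 normalised counts in 4 or more libraries, with all 9 libraries and no covariate. Fold changes on this scale understate those of low genes. Ratios of gene pairs were tested with scipy 1.17.1. edgeR 4.0.16 called 7649 and DESeq2 1.42.0 called 7532 genes on the recovered reads. Lengths came from GENCODE vM21 by symbol (98.3% of genes), coordinates from its build GRCm38, and promoters from RefSeq on GRCm38.p6. On simulated counts the test recovered 69.1% of genes changed by 1 and 97% changed by 2 on the log2 scale. The simulation changed 97 and 100 of 12526 genes by these amounts, while 59.7% of genes were called in the data. These rates therefore need not hold for the data. The 10 genes, the lists and the rule for naming others (the largest called changes in each list, at most 4, with a mean of at least 20, and fixed genes) were chosen with earlier results of these data known. Further alternatives were other pseudocounts (0.1 and 5), filters, scalings, thinned reads and each library left out. A further 2 genes of the route were left out of the lists and are not reported here.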

Additional observations from a re-analysis of the deposited data

Results flagged for a closer look

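In 94 sets of values, each of 4 young or 5 old libraries, the extreme library's gap to its neighbour was divided by the whole range (gap ratio). The ratio passed Dixon's limit (0.829 for 4 and 0.71 for 5 libraries) in 6 sets, where chance, at 1 in 20, gives about 4.7. Old replicate 2, whose values over the whole table correlated with the young libraries at 0.885 to 0.895 (other old libraries 0.845 to 0.864), stood apart in 3 of them, on the log2 scale. Igf1r was 11.39 there and 11.20 to 11.21 in the other old libraries (gap ratio 0.942), and without this library the log2 fold change of Igf1r was 0.12 (adjusted p 0.321 by limma). Lrp1 was 7.50 there and 7.90 to 7.98 in the others (0.818), and Akt1 7.56 and 6.98 to 7.14 (0.718), so that both lay nearer to the young level in this library. Foxo3 reached 6.96 in young replicate 2, beside 6.64 to 6.66 elsewhere among the young (0.94). Pik3ca lay at 7.69 in young replicate 4, beside 7.87 to 7.90 (0.878). The log2 ratio of Irs1 to Irs2 lay at -2.38 in young replicate 1, beside -1.24 to -1.07 (0.876).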

How the results depend on the processing

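No paired analysis was run, since the labels link no young library to an old one. Of the 10 genes, Igfbp7, Igfbp3 and Igfbp4 kept direction and call under each of 20 alternatives, and 4 to 7 were called over all of them (5 in the main test). Members called higher were 5 after leaving out mitochondrial genes and rescaling, and 1 with the length trend removed, which called 6 lower. The split of all called genes moved too, from 48.9% higher to 58.6% after the first of these. The length trend reversed Igf1r (-0.42), Insr (-0.0095), Igfbp5 (-0.10), Foxo3 (-0.095) and Igf2r (-0.13). Irs2 reversed without young replicate 1 (0.013). The filter on a mean of 100 left 4101 called genes (7568 in the main test), since fewer genes were tested.

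With 1 library left out, the smallest p-value of the ratio tests was 0.0357 or 0.0286, which rarely passes after adjustment. The difference was then -2.16 to -1.90 for Igfbp3/Igfbp5, -2.57 to -2.42 for Igfbp3/Igfbp4, -0.43 to -0.20 for Igf1r/Insr, -0.62 to -0.18 for Irs1/Irs2 and 0.37 to 0.57 for Igfbp4/Igfbp5. Igfbp4/Igfbp5 passed with the length trend removed (0.72, exact permutation, adjusted p 0.0265) and without old replicate 3 (0.57, adjusted p 0.0476 by exact permutation). Over the genes named from the wider lists and all alternatives, a call was lost 11 times (8 for Igfbp1, 1 each for Lrp1, Ghr and Igf2r) and gained 2 times (Pik3ca and Foxo4), and the direction changed for Igf2r alone. Thinned to the smallest library total, Irs1 stood at -0.61 (limma, adjusted p = 0.0316) and Igf1 at -0.31 (0.224), close to their main values.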
